A study of Mus musculus with 12 samples.

Results

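The response of mouse pancreatic stellate cells to the conditioned medium of gemcitabine-treated tumour cells was examined across all genes of the PSC4 count table. PSC4 is a murine pancreatic stellate cell line, and KPC4, which conditioned the medium, is a mouse pancreatic adenocarcinoma line. KPC4 cells had received 10 µM gemcitabine, a nucleoside analogue that blocks DNA synthesis, or vehicle for 6 h. After a wash they stayed for 14 h in starvation medium, and the media so conditioned are called Gem-SU, from treated cells, and Control-SU. RNA was taken from PSC4 after 24 h in one or the other. Each group had 3 libraries, which the labels call biological replicates, so 6 of the 12 libraries of the series were used here. Of 16386 genes in the PSC4 table, 13347 had enough counts to be tested. Of these, 2654 with a mean of at least 100 CPM over the 6 libraries, are called well expressed. CPM stands for the counts of a gene scaled to a common library total, after a correction for composition. No group in which PSC4 cells met gemcitabine without tumour cells was analysed here, so drug left in the supernatant and factors released by the treated tumour cells cannot be told apart.

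Stellate cells store lipid in the resting pancreas and, once activated, behave as fibroblasts that deposit collagen and secrete cytokines and growth factors. In pancreatic cancer they are a main source of the fibrous stroma. DNA damage stabilises the transcription factor p53, which switches on cell cycle brakes and repair genes. Shortage of amino acids or other stress leads to phosphorylation of the initiation factor eIF2, which lowers bulk translation while the transcription factor Atf4 raises amino acid transport and synthesis genes. Dividing cells express replication genes around the entry into S phase, largely under E2F factors, and mitotic genes later, largely through promoters with CCAAT boxes and CHR elements.

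The libraries held 29559414 to 38138356 counts. Control-SU replicate 2 stood apart, with 14427 genes with a count against 15354 to 15407 in the others and 7.28% mitochondrial counts against 4.07% and 4.10% in the other Control-SU libraries and 2.17% to 3.53% with Gem-SU. Without it, 5892 genes passed the test and 1282 of the well expressed genes did. All 12 stellate and fibroblast markers examined were present, and summed to 7893 to 9262 CPM of the plain library total with Control-SU and to 2496 to 3896 CPM with Gem-SU. In KPC4 the same list summed to 2241 to 4119 CPM, so its sum with Gem-SU was within the range of the tumour cells. Much of the KPC4 sum came from Vim (mean 2327 CPM) and S100a6 (868 CPM), which are thus not particular to stellate cells. Fap was at most 1.88 CPM in any PSC4 library. None of the 12 was higher with Gem-SU and 9 were lower. The activation marker Acta2 had 17.9, 11.9 and 17.0 CPM with Control-SU and 37.4, 17.3 and 26.5 CPM with Gem-SU (adjusted p = 0.0538). Of 14 epithelial markers 8 were in the PSC4 table, and these summed to 3.77 to 6.22 CPM with Control-SU and 10.4 to 15.1 CPM with Gem-SU, against 5313 to 7098 CPM in KPC4. Epcam and Cdh1, which define epithelial cells, were not among them, and Krt19 rose from 2.43 to 3.69 CPM to 6.71 to 9.15 CPM (adjusted p = 0.00441). The acinar, endothelial, immune and glial lists summed to at most 42.7 CPM in any PSC4 library. In bulk RNA, fewer cells of a type and less RNA per cell cannot be told apart.

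With Gem-SU, 6177 genes passed the test (edgeR's quasi-likelihood test, adjusted p under 0.05), which is 46.3% of those tested. Higher genes were 24.3% and lower genes 22.0% of all genes tested, and the median log2 fold change was 0.00. Among the well expressed genes 1406 passed, or 53.0%, with 745 higher (28.1%) and 661 lower (24.9%). Changes were broad but mostly moderate at this level, since 599 of the 1406 were at least 2-fold, and 74 rises and 25 falls were at least 4-fold. The most abundant genes leaned down. Of 56 genes at or above 1000 CPM, 6 were higher and 22 lower, with a median log2 fold change of -0.61, whereas the 2598 genes between 100 and 1000 CPM split into 739 and 639 with a median of 0.04. Genes called higher held 15.7% ± 0.447 (SD, n = 3) of all counts with Control-SU and 34.6% ± 2.19 with Gem-SU. Genes called lower went from 36.8% ± 0.870 to 18.5% ± 2.72. Both sets were called in these same libraries, so the direction of each shift was fixed by the choice. Only its size is informative. Leaving out Gem-SU replicate 2 brought the well expressed calls from 1406 to 902, and those lower from 661 to 358.

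**Figure D1:**
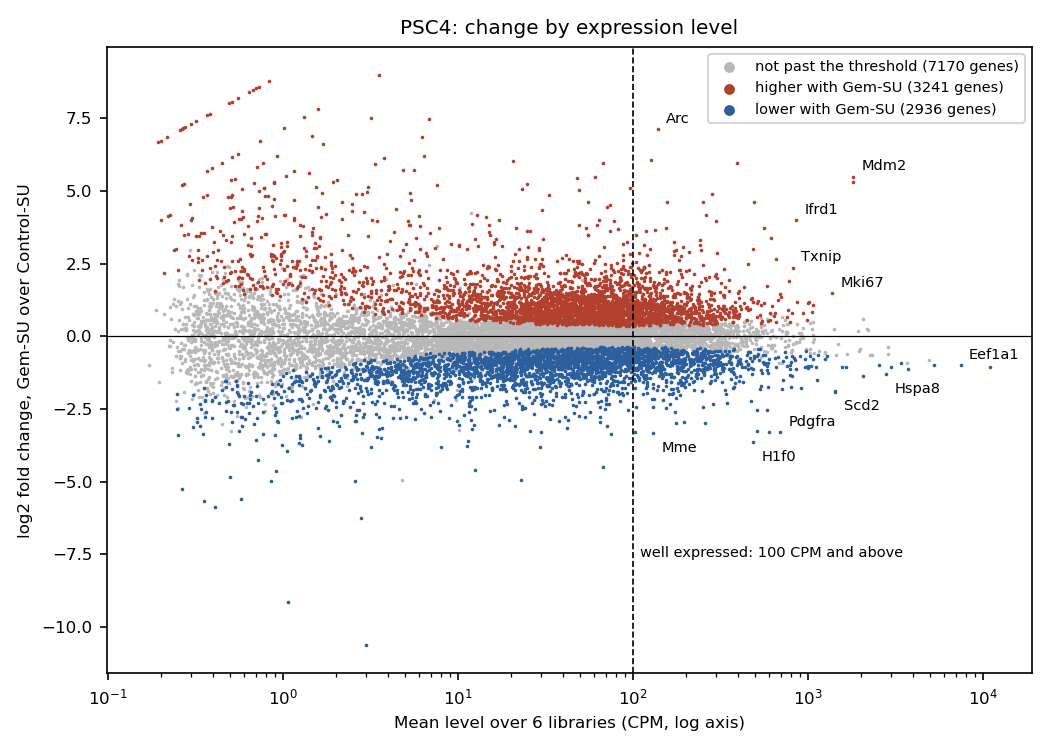
Log2 fold change of each of the 13347 genes tested (vertical axis, Gem-SU over Control-SU) against its mean level over 6 libraries in CPM (log axis), coloured by whether it passed the test and in which direction; the dashed line marks 100 CPM. Changes past the threshold run in both directions at every level, and the genes beyond 1000 CPM lie mostly below 0.

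Beyond genes at a few CPM, the largest rises among well expressed genes were led by Atf3, Arc, Fos, Btg2 and Mdm2. The 12 largest include immediate early and growth factor genes as well as the p53 targets Btg2, Mdm2 and Cdkn1a. Which signal raised each gene was not tested. Egr1, a zinc finger transcription factor of the immediate early class, had 110, 85.6 and 68.3 CPM with Control-SU and 3058, 3387 and 4087 CPM with Gem-SU, a log2 fold change of 5.32 ± 0.28 (SE; adjusted p = 1.93e-05). Homer1, a synaptic scaffold protein with a short activity-induced form, went from 17.4, 21.3 and 20.3 CPM to 337, 498 and 622 CPM (log2 fold change 4.63 ± 0.26, adjusted p = 2.10e-05). Every Gem-SU library lay far above every Control-SU library for both genes, although a lack of overlap was a condition of their choice. Ptgs2, the inducible cyclooxygenase that makes prostaglandin precursors, rose from 21.7, 15.1 and 17.7 CPM to 379, 508 and 752 CPM (log2 fold change 4.91 ± 0.30). Hbegf, a ligand of the EGF receptor, rose from 15.0, 10.9 and 11.2 CPM to 296, 281 and 327 CPM (4.61 ± 0.19). Ier2, another immediate early gene, rose from 23.4, 39.8 and 18.8 CPM to 600, 368 and 508 CPM (4.17 ± 0.33). The transcriptional coregulator Ifrd1 was the most abundant of these 12 genes with Control-SU and stayed among the highest. Its values were 116, 86.8 and 99.4 CPM with Control-SU and 1641, 1444 and 1764 CPM with Gem-SU (4.01 ± 0.20, adjusted p = 1.93e-05).

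Ranked by CPM gained rather than by fold, Mdm2, Egr1 and Ifrd1 came first, and 2 genes of moderate fold joined them. Mki67, the proliferation marker Ki-67, had 416, 1025 and 734 CPM with Control-SU and 1260, 2096 and 2748 CPM with Gem-SU (log2 fold change 1.49 ± 0.38, adjusted p = 0.0123). Txnip, which binds thioredoxin and restrains glucose uptake, had 269, 317 and 213 CPM against 959, 1580 and 1594 CPM (2.37 ± 0.26, adjusted p = 0.000281). Groups did not overlap for either gene, which was a condition of their choice, and the lowest Gem-SU library of Mki67 stood close to the highest Control-SU library. Mdm2, which encodes the ubiquitin ligase that degrades p53, gained 3479 CPM on average, Egr1 3423 CPM and Ifrd1 1516 CPM.

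The largest falls among well expressed genes were in secreted matrix proteins, fibroblast receptors and a linker histone. H1f0, the linker histone H1.0 of cells that divide slowly or have differentiated, had 1027, 839 and 843 CPM with Control-SU and 102, 56.7 and 59.5 CPM with Gem-SU (log2 fold change -3.64 ± 0.27, adjusted p = 5.99e-05). Pdgfra, the PDGF receptor of mesenchymal cells, went from 1216, 1412 and 1146 CPM to 168, 117 and 97.8 CPM (-3.30 ± 0.25). Both fell in all Gem-SU libraries, and Gem-SU replicate 1 kept the most. Cxcl12, a chemokine that attracts leukocytes, had 1332, 855 and 1061 CPM against 223, 58.8 and 49.1 CPM (-3.30 ± 0.57, adjusted p = 0.00206). Gas1, a surface protein of growth-arrested cells, had 1312, 660 and 791 CPM against 204, 54.5 and 33.2 CPM (-3.24 ± 0.65). For these 2 genes Gem-SU replicate 1 stood well above the other Gem-SU libraries while staying below all Control-SU libraries, as their choice required. The membrane peptidase Mme (neprilysin) fell by 3.33 on the log2 scale and the sphingosine 1-phosphate receptor S1pr1 by 2.99. Rnf150, a RING finger protein, fell by 3.29. The secreted proteins Ogn, Tgfbi and Ccdc80 fell by 2.99, 2.95 and 2.60, the collagen crosslinking enzyme Lox by 2.55 and the fibrillar collagen Col3a1 by 2.53.

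**Figure D2:**
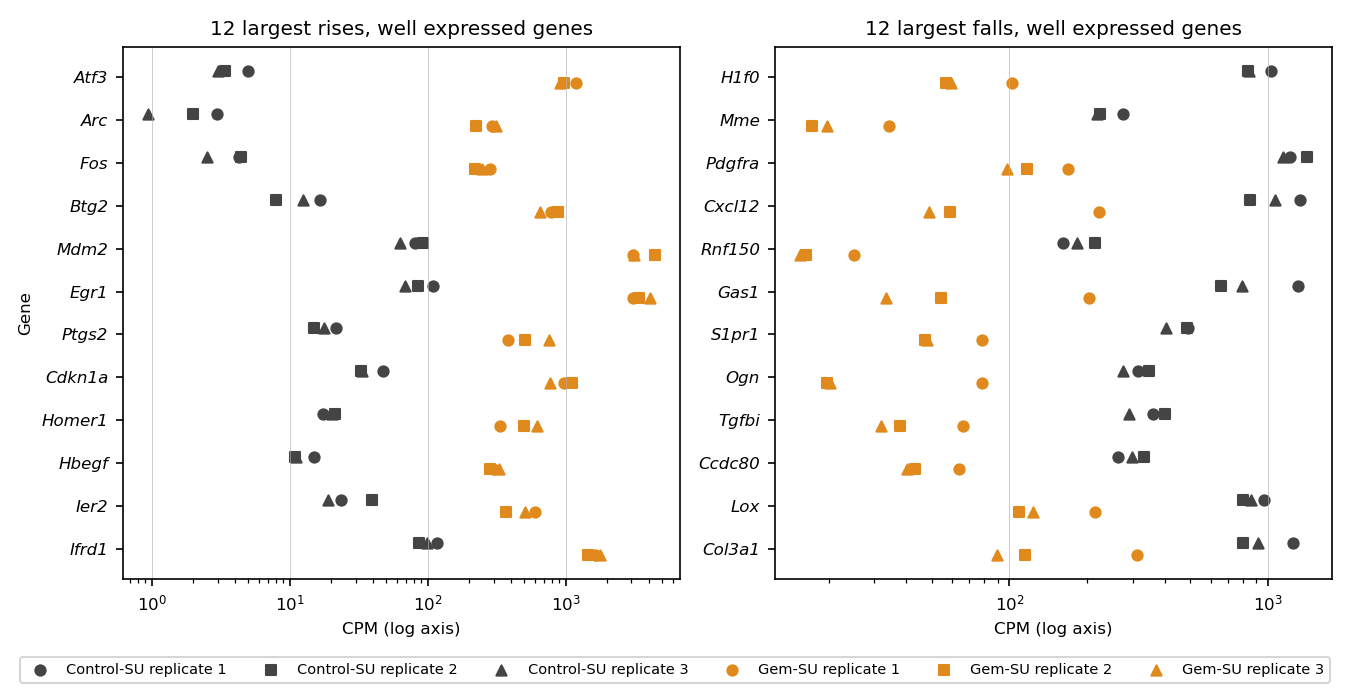
CPM (log axis) of the 12 largest rises (left) and 12 largest falls (right) among well expressed genes, 1 point per library, with Control-SU libraries in grey and Gem-SU libraries in orange. The groups do not overlap for any of these genes, which was a condition of their choice; among the falls the Gem-SU library nearest to Control-SU is replicate 1 throughout.

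By CPM lost, the largest falls were in housekeeping and matrix genes. The translation elongation factor Eef1a1 had 8903, 11338 and 9441 CPM with Control-SU and 5235, 4684 and 5079 CPM with Gem-SU (log2 fold change -0.98 ± 0.22, adjusted p = 0.00621). Eef2, which moves the ribosome along the message, fell from 4245, 4373 and 4784 CPM to 2658, 2207 and 2148 CPM (-0.93 ± 0.20). The constitutive chaperone Hspa8 had 3133, 5015 and 3803 CPM against 2019, 1353 and 1446 CPM (-1.31 ± 0.26). Nedd4, a ubiquitin ligase, fell from 2512, 3544 and 2848 CPM to 1136, 1106 and 1217 CPM (-1.36 ± 0.20). The fatty acid desaturase Scd2 fell from 1807, 2183 and 2795 CPM to 608, 574 and 633 CPM (-1.90 ± 0.21). Col1a1, the main fibrillar collagen chain, fell from 3756, 2815 and 3593 CPM to 2018, 1718 and 1444 CPM (-0.97 ± 0.22). Gem-SU lay below Control-SU in every library for these 6 genes, which was a condition of their choice.

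To describe functions, 48 gene lists were counted, and each count is read beside 24.3% higher and 22.0% lower over all genes tested, with a median log2 fold change of 0.00. The lists and their members were chosen with earlier results of these data known. A count beyond these shares is therefore a description of the list and not a test of it. Stress and damage lists stood at the upper end. Of 30 p53 targets 25 were higher and 1 lower, with a median of 2.54, and of 25 immediate early genes 19 were higher and 1 lower, with a median of 2.35. Among the p53 targets, Pmaip1, a BH3-only killer protein, rose from 5.31, 3.47 and 4.10 CPM to 105, 117 and 97.2 CPM (log2 fold change 4.63 ± 0.21). The pore former Bax, at 39.6, 13.9 and 29.4 CPM against 67.2, 50.6 and 23.5 CPM, overlapped between groups (0.77 ± 0.44, adjusted p = 0.180). The 18 genes listed as dampening MAP kinase signalling gave 10 higher and 1 lower (0 to 2 in the fits without 1 library), with a median of 0.97. Dusp8, a phosphatase of stress kinases, rose from 3.22, 1.80 and 3.06 CPM to 98.6, 126 and 133 CPM (5.47 ± 0.27), and the ERK phosphatase Dusp6 from 6.55, 4.48 and 7.96 CPM to 43.6, 53.5 and 58.1 CPM (3.03 ± 0.25). The Ras GTPase-activating protein gene Rasa1 and Spred2, an inhibitor of Ras to ERK signalling, did not pass, at log2 fold changes of 0.14 and -0.36.

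Genes of the integrated stress response rose as well, with 20 of 30 higher, 3 lower and a median of 1.37. The cystine importer Slc7a11 had 5.60, 9.82 and 11.9 CPM with Control-SU and 37.3, 105 and 164 CPM with Gem-SU (log2 fold change 3.49 ± 0.52, adjusted p = 0.00104). Ppp1r15a, the phosphatase subunit that reverses eIF2 phosphorylation, rose from 33.6, 29.7 and 26.5 CPM to 248, 195 and 184 CPM (2.81 ± 0.18). Cth, which makes cysteine from cystathionine, rose from 10.9, 15.1 and 14.9 CPM to 62.8, 84.8 and 97.1 CPM (2.58 ± 0.22). Groups were apart for all of these. That held for 60.1% of the well expressed genes, a set that Slc7a11 and Cth are too low to be in. A well expressed member moved the other way: Slc38a2, a neutral amino acid transporter chosen here after its values were seen, fell from 1274, 1422 and 1530 CPM to 438, 375 and 434 CPM (-1.76 ± 0.17, adjusted p = 0.000168). The enzymes that load amino acids onto tRNA gave 15 of 21 higher and 2 lower (1 or 2 in the fits without 1 library), with a median of 0.67. Yars had 84.2, 91.4 and 109 CPM against 242, 255 and 297 CPM (1.48 ± 0.16), and Aars 360, 380 and 466 CPM against 789, 823 and 903 CPM (1.06 ± 0.17). Kars and Sars did not pass, at 0.12 and 0.29.

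**Figure D3:**
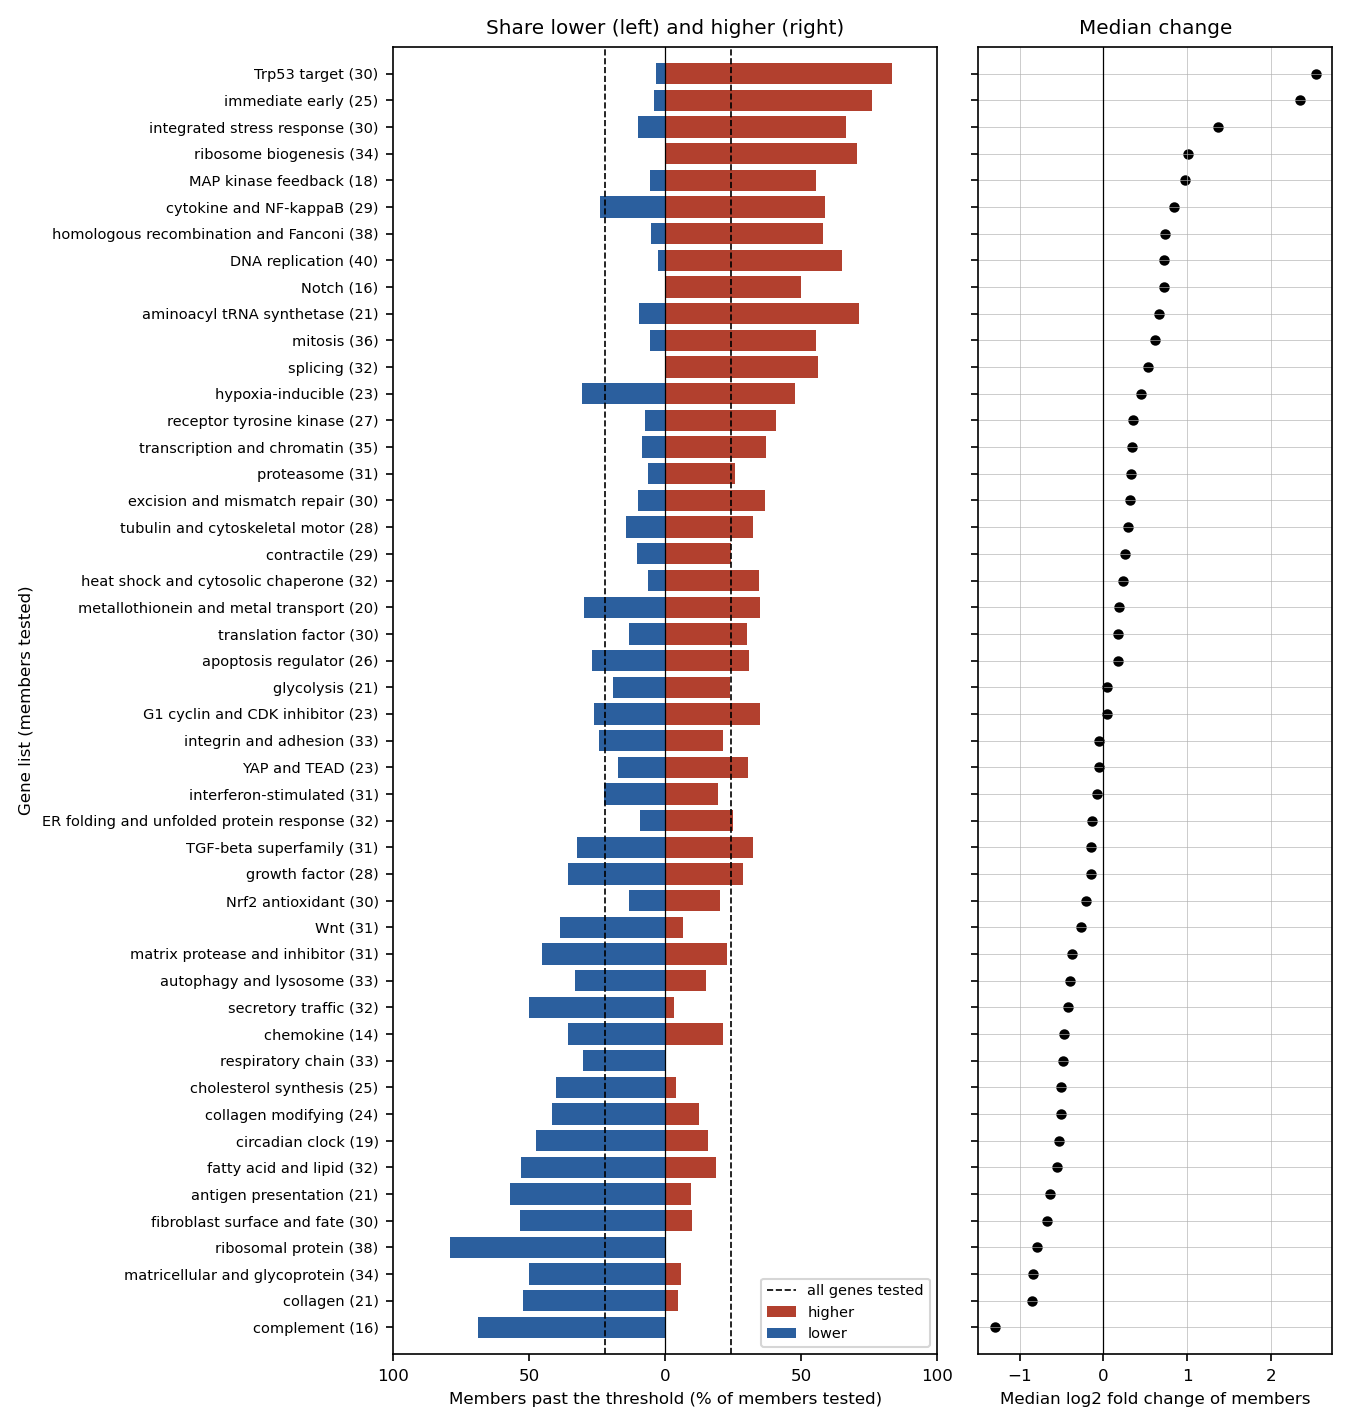
Left, share of tested members higher (red, right) and lower (blue, left) with Gem-SU for each of 48 gene lists, with the number of members tested in brackets and dashed lines at the shares over all genes tested (24.3% and 22.0%). Right, median log2 fold change of the members, from 2.54 for p53 targets to -1.30 for complement genes.

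DNA replication and recombination genes rose. Of 40 DNA replication genes 26 were higher and 1, the polymerase subunit Pold1, lower (0 or 1 in the fits without 1 library), with a median of 0.73. Rrm2 encodes a subunit of ribonucleotide reductase, the enzyme that supplies deoxynucleotides and is a target of activated gemcitabine. It had 65.8, 42.6 and 57.3 CPM with Control-SU and 462, 435 and 404 CPM with Gem-SU (log2 fold change 2.97 ± 0.20, adjusted p = 4.04e-05). Orc1, of the origin recognition complex, rose from 10.7, 9.28 and 11.4 CPM to 54.9, 72.8 and 76.1 CPM (2.70 ± 0.19). The S phase cyclin Ccne1 rose from 15.5, 13.6 and 12.9 CPM to 101, 79.2 and 74.2 CPM (2.60 ± 0.18), and Ccne2 from 32.0, 33.4 and 28.6 CPM to 137, 167 and 191 CPM (2.39 ± 0.17). The rise was not shared by every part of the replication machinery. The abundant helicase subunits Mcm6 (498, 557 and 461 CPM against 493, 474 and 504 CPM) and Mcm2 (379, 297 and 319 CPM against 347, 301 and 300 CPM) overlapped between groups.

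Homologous recombination and Fanconi genes gave 22 of 38 higher and 2 lower (0 to 2 in the fits without 1 library), with a median of 0.74. Clspn, an adaptor of the replication checkpoint, rose from 53.2, 62.5 and 54.1 CPM to 223, 258 and 278 CPM (log2 fold change 2.16 ± 0.15). The damage kinase Atm and the nuclease partner Rad50 did not pass, at 0.31 and 0.29. Excision and mismatch repair was nearer the background, with 11 of 30 higher and 3 lower and a median of 0.32, and 7 higher without Control-SU replicate 3 or Gem-SU replicate 2. Its lower genes were 5 without Gem-SU replicate 1 and 0 to 4 in the other such fits. Rev1, a translesion polymerase, led it with 37.7, 33.5 and 40.3 CPM against 110, 152 and 124 CPM (1.79 ± 0.17).

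In the mitosis list 20 of 36 genes were higher and 2 lower, with a median of 0.62. Incenp, of the chromosomal passenger complex, had 86.0, 85.8 and 93.7 CPM with Control-SU and 293, 323 and 317 CPM with Gem-SU (log2 fold change 1.81 ± 0.14). The kinetochore motor Cenpe rose from 173, 366 and 280 CPM to 530, 1016 and 1153 CPM (1.72 ± 0.35), and Espl1, the separase that parts sister chromatids, from 102, 69.8 and 119 CPM to 222, 272 and 258 CPM (1.37 ± 0.21). Topoisomerase Top2a and the kinetochore protein Cenpf overlapped between groups, at log2 fold changes of 0.00 and 0.06. The 2 lower members were the mitotic cyclin Ccnb2, at 113, 110 and 116 CPM against 63.1, 51.4 and 49.4 CPM, and the ubiquitin-conjugating enzyme Ube2c, at 106, 140 and 112 CPM against 72.1, 61.7 and 72.7 CPM. Among 23 G1 regulators 8 were higher and 6 lower, with a median of 0.04. Without Control-SU replicate 1 or without Gem-SU replicate 2, 3 were lower. The members that rose most were the E2F factors E2f2 (log2 fold change 2.22), E2f8 (1.99) and E2f7 (1.71) and the phosphatase Cdc25a (1.88), while Cdk4 and Ccnd1 did not pass, at -0.30 and 0.47.

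The promoters of these groups were read from RefSeq (build GRCm38.p6), as 250 bases before to 50 bases after the start of each gene. The table matched 10085 of the genes tested by symbol, with 12879 promoters. Motifs were searched on both strands: CHR as TTTGAA, the CCAAT box as CCAAT, E2F as TTTGGCGC or TTTCCCGC, and the cyclic AMP response element CRE as TGACGTCA. No motif lies inside another. The CHR letters were in 78.1% of 32 promoters of the mitosis list, against 12.3% of the promoters of genes tested and 17.9% of the 32851 promoters in the table, and the CCAAT letters in 78.1%, against 38.1% and 37.4%. These shares describe the list and not its change: CHR letters were present for 10 of 14 higher genes with a promoter and for 10 of 13 that did not pass. In the DNA replication list each of the E2F forms was in 16.7% of 36 promoters, against 0.893% and 1.95% of the promoters of genes tested and 0.514% and 1.07% of all in the table. These shares too describe the list. TTTGGCGC was present for 4 of 23 higher genes with a promoter and for 2 of 8 that did not pass. TTTCCCGC was present for 5 of 23 higher genes, for 0 of 8 that did not pass and for the 1 lower gene. CRE letters were in 3.85% of promoters of genes higher with Gem-SU, 2.20% of those lower, 2.87% of those of genes tested and 1.79% of all. The following 6 show these motifs in genes that rose; Cdc6 and Mcm5 were chosen after their values were seen, because they hold the E2F letters. Each line gives the 250 bases before the start site, 5′ to 3′ on the gene's strand, with the matches for its group's motifs in capitals.
Mki67, chr7:135716380-135716629, minus strand, CHR and CCAAT: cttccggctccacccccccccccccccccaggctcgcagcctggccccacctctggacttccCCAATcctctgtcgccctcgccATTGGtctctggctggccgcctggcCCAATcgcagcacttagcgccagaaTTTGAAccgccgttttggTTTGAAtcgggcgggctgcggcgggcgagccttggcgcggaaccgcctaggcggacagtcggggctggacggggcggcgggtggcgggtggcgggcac
Espl1, chr15:102296043-102296292, plus strand, CHR and CCAAT: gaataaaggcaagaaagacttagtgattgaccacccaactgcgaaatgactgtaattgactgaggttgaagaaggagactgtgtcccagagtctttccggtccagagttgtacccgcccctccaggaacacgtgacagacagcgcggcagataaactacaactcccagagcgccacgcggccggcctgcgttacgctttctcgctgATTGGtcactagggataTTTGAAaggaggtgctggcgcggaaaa
Cdc6, chr11:98907901-98908150, plus strand, E2F: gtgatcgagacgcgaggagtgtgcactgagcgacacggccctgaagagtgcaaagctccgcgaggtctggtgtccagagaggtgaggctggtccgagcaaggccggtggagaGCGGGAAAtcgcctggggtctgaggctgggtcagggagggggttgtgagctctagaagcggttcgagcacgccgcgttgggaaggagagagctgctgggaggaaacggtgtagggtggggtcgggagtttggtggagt
Mcm5, chr8:75109259-75109508, plus strand, E2F: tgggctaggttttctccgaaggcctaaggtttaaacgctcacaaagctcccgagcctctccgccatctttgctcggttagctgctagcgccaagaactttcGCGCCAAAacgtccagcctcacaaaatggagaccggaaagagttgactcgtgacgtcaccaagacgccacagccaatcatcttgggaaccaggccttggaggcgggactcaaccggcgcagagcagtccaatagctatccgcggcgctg
Btg2, chr1:134079156-134079405, minus strand, CRE: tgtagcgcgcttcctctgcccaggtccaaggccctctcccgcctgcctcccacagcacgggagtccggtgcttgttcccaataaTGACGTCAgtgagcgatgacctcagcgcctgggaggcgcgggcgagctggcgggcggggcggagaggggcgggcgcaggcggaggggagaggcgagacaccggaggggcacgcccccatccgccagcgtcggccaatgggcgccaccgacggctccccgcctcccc
Ppp1r15a, chr7:45526269-45526518, minus strand, CRE: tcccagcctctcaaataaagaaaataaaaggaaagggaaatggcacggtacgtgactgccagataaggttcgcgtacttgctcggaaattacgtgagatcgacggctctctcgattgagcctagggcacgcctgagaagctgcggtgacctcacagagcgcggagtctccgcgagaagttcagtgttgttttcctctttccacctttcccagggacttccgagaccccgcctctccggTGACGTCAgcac

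In Mki67 the CHR letters begin at -116 and -98 from the start site, with CCAAT boxes further upstream. In Espl1 the CCAAT letters, on the other strand, begin at -44 and the CHR letters at -27. Cdc6, which loads the replicative helicase, rose from 46.6, 44.5 and 40.3 CPM to 179, 199 and 228 CPM (log2 fold change 2.20 ± 0.15). The helicase subunit Mcm5 changed less, from 256, 185 and 241 CPM to 339, 321 and 317 CPM (0.52 ± 0.17, adjusted p = 0.0311). Of the 12 largest rises, 8 genes with 10 promoters were searched, and Btg2, an antiproliferative p53 target, was the one with the CRE letters. None held the AP-1 letters TGACTCA, which were in 3.89% of the promoters of genes tested and 3.82% of those of genes higher with Gem-SU. With 10 promoters, their absence does not set these genes apart. Btg2 rose from 16.6, 8.02 and 12.4 CPM to 789, 887 and 653 CPM.

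Genes that build ribosomes and genes that encode their proteins moved in opposite directions. Of 34 ribosome biogenesis genes 24 were higher and 0 lower, with a median of 1.01. In this list no gene was lower with DESeq2 or limma-voom, nor at an unadjusted p under 0.05 in edgeR. Nop56, of the small nucleolar particles that modify ribosomal RNA, had 115, 113 and 102 CPM with Control-SU and 531, 439 and 488 CPM with Gem-SU (log2 fold change 2.14 ± 0.15, adjusted p = 5.47e-05). Rrp12, a ribosome assembly factor, rose from 11.5, 8.90 and 10.4 CPM to 48.5, 63.6 and 76.4 CPM (2.61 ± 0.21), and Utp20, of the small subunit processome, from 65.3, 82.9 and 82.5 CPM to 177, 284 and 293 CPM (1.71 ± 0.22). The abundant nucleolar protein Npm1 overlapped between groups (-0.06 ± 0.21).

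Of 38 ribosomal protein genes, by contrast, 30 were lower and 0 higher, with a median of -0.79. Among them no gene was higher with DESeq2 or limma-voom, nor at an unadjusted p under 0.05 in edgeR. Rpl38 had 147, 154 and 87.1 CPM against 66.7, 36.4 and 28.3 CPM (log2 fold change -1.56 ± 0.34), and Rps4x 1478, 1302 and 1107 CPM against 781, 534 and 550 CPM (-1.06 ± 0.21). Rplp0, at 3132, 2512 and 2646 CPM against 2394, 1540 and 1381 CPM, did not overlap but did not pass (-0.64 ± 0.25, adjusted p = 0.0637). The number of lower genes rested on single libraries: it was 16 without Control-SU replicate 1, 5 without Gem-SU replicate 2 and 13 without Gem-SU replicate 3, with list medians from -1.09 to -0.67. With an offset for exonic length, 33 were lower and the median was -0.76. For comparison, well expressed genes with an exonic length under 1 kb had 61.0% lower and a median of -0.88. Those of 1 to 2 kb had 45.8% lower and a median of -0.60. Whether ribosomal protein genes fell further than other short, abundant genes was not tested. Many have processed pseudogenes, so their counts may be split between near-identical copies.

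Translation factors were mixed, with 9 of 30 higher and 4 lower and a median of 0.17. Higher members numbered 5 without Control-SU replicate 1, 3 without Control-SU replicate 3, 5 without Gem-SU replicate 2 and 4 without Gem-SU replicate 3, and lower members 7 without Gem-SU replicate 1. Eif4b, which assists the helicase that unwinds messages, fell from 1068, 1187 and 1140 CPM to 459, 450 and 437 CPM (log2 fold change -1.33 ± 0.16), beside the falls of Eef1a1 and Eef2. Eif2s1, the eIF2 subunit that is phosphorylated under stress, rose from 76.8, 72.9 and 70.6 CPM to 136, 144 and 152 CPM (0.97 ± 0.13). Splicing genes gave 18 of 32 higher and 0 lower, with a median of 0.53. The count of lower genes was also 0 with DESeq2, with limma-voom and at an unadjusted p under 0.05 in edgeR, and 1 with the exonic length offset. The SR protein Srsf7 rose from 127, 109 and 127 CPM to 514, 483 and 459 CPM (2.00 ± 0.15), and the SR protein kinases Clk4 and Clk1 by 1.71 and 1.46, while Hnrnpa2b1 and Srrm2 overlapped between groups at 0.02 and 0.44. In the transcription and chromatin list 13 of 35 were higher and 3 lower, with a median of 0.34. Sirt1, an NAD-dependent deacetylase, rose from 39.4, 44.4 and 38.2 CPM to 305, 334 and 390 CPM (3.08 ± 0.16), Polr2a, the large subunit of RNA polymerase II, from 298, 312 and 322 CPM to 608, 730 and 836 CPM (1.22 ± 0.17), and the remodeller Chd4 from 468, 549 and 560 CPM to 1068, 1254 and 1308 CPM.

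Collagen and matricellular lists held more lower than higher genes. Among 21 collagen genes 11 were lower and 1 higher, with a median of -0.85. The higher one, Col27a1, had 1.77, 1.07 and 0.358 CPM against 3.77, 4.42 and 2.07 CPM, and did not pass without Control-SU replicate 2 or 3 or without Gem-SU replicate 1 or 2. Col6a1, a chain of the beaded collagen VI, had 858, 836 and 781 CPM with Control-SU and 355, 222 and 185 CPM with Gem-SU (log2 fold change -1.70 ± 0.25, adjusted p = 0.000954). Col1a2 fell from 610, 500 and 630 CPM to 208, 163 and 138 CPM (-1.77 ± 0.20), and Col11a1 from 38.4, 44.0 and 42.4 CPM to 12.6, 11.0 and 11.7 CPM (-1.82 ± 0.16). The basement membrane chains Col4a1 and Col4a2 overlapped between groups, at 0.09 and 0.17. Of 34 matricellular proteins and glycoproteins 17 were lower and 2 higher, with a median of -0.84. The elastic fibre protein Emilin1 fell from 262, 150 and 245 CPM to 73.3, 26.8 and 22.8 CPM (-2.42 ± 0.45), and the laminin chain Lama4 from 54.4, 74.0 and 67.4 CPM to 22.6, 12.5 and 14.8 CPM (-1.97 ± 0.24). Fibronectin (Fn1), at 1545, 2319 and 2149 CPM against 1962, 2433 and 2727 CPM, and osteopontin (Spp1), at 1971, 2429 and 2464 CPM against 1583, 1516 and 1800 CPM, did not pass. The 2 higher members were Tnc, the matricellular protein tenascin C (log2 fold change 1.49 ± 0.19), and the latent TGF-beta binding protein Ltbp2 (1.08).

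Enzymes that modify collagen gave 10 of 24 lower and 3 higher, with a median of -0.50, and 4 lower without Gem-SU replicate 2 and 6 without Gem-SU replicate 3. Alongside the fall of Lox, the lysyl hydroxylase Plod2 rose from 32.0, 40.9 and 35.6 CPM to 115, 147 and 114 CPM (log2 fold change 1.79 ± 0.17), and the lysyl oxidase relative Loxl4 from 74.8, 63.7 and 94.9 CPM to 141, 202 and 190 CPM (1.19 ± 0.20). Enzymes of related activity in this list thus changed in opposite directions. Matrix proteases and their inhibitors gave 14 of 31 lower and 7 higher, with a median of -0.37, and 8, 7 and 8 lower without Control-SU replicate 1, Gem-SU replicate 2 and Gem-SU replicate 3. The urokinase Plau, which activates plasminogen, rose from 16.1, 12.9 and 12.9 CPM to 60.8, 66.7 and 61.2 CPM (log2 fold change 2.17 ± 0.16), and its receptor Plaur from 8.99, 6.54 and 5.43 CPM to 38.3, 31.4 and 29.3 CPM (2.24 ± 0.23). The aggrecanase Adamts5 fell from 139, 173 and 215 CPM to 45.3, 27.8 and 25.2 CPM (-2.42 ± 0.26). Secretory traffic, the route by which collagen leaves the cell, gave 16 of 32 lower and 1 higher, with a median of -0.42, and 10 lower without Gem-SU replicate 2. Kdelr1, which returns escaped proteins to the endoplasmic reticulum, fell from 104, 71.6 and 83.9 CPM to 42.5, 29.3 and 29.0 CPM (-1.36 ± 0.21), and the COPII coat protein Sec24d from 222, 179 and 196 CPM to 93.4, 74.0 and 90.4 CPM (-1.21 ± 0.16).

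Markers of fibroblast identity fell beside the matrix, with 16 of 30 lower and 3 higher and a median of -0.67. The surface proteins Ly6c1 and Ly6a had 233, 311 and 236 CPM against 69.9, 36.3 and 36.6 CPM (log2 fold change -2.45 ± 0.28) and 496, 476 and 466 CPM against 146, 79.2 and 60.6 CPM (-2.33 ± 0.31). The mesenchymal factor Twist1 did not pass (0.19). Contractile genes were split by member, with 7 of 29 higher and 3 lower and a median of 0.26. DESeq2 counted 12 higher, and 9 were lower without Gem-SU replicate 1. The actin binding proteins Tagln (3.19, 3.35 and 2.60 CPM against 32.7, 27.6 and 26.5 CPM, log2 fold change 3.25 ± 0.20) and Smtn (23.9, 20.2 and 27.3 CPM against 151, 134 and 131 CPM, 2.54 ± 0.16) rose. The intermediate filament protein Vim fell from 1313, 2038 and 1662 CPM to 710, 545 and 525 CPM (-1.49 ± 0.23). Integrin and adhesion genes stayed near the background, at 7 of 33 higher and 8 lower. The hyaluronan receptor Cd44 rose from 164, 172 and 158 CPM to 390, 489 and 526 CPM (1.51 ± 0.17) and the syndecan Sdc4 from 353, 242 and 227 CPM to 769, 666 and 609 CPM (1.31 ± 0.21), whereas the collagen receptor chain Itga1 fell by 1.76 and Itgb1 did not pass (-0.18).

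Signalling pathways changed member by member. Of 28 growth factors 8 were higher and 10 lower, with a median of -0.15. The EGF family ligand Ereg rose from 28.2, 35.7 and 29.4 CPM to 132, 173 and 181 CPM (log2 fold change 2.38 ± 0.18), while the lymphangiogenic factor Vegfd fell from 105, 139 and 84.5 CPM to 33.9, 13.8 and 12.9 CPM (-2.44 ± 0.39). The TGF-beta superfamily gave 10 of 31 higher and 10 lower, and 6 lower without Control-SU replicate 1, Control-SU replicate 3, Gem-SU replicate 2 or Gem-SU replicate 3. Among its ligands the stress cytokine Gdf15 rose from 1.28, 1.45 and 1.04 CPM to 52.3, 48.2 and 44.7 CPM (5.26 ± 0.21) and Inhba, the activin subunit, from 26.3, 21.6 and 22.6 CPM to 67.7, 90.8 and 116 CPM (1.96 ± 0.21). The inhibitory Smad7 rose from 7.80, 4.45 and 7.38 CPM to 46.6, 46.9 and 35.8 CPM (2.72 ± 0.25). The BMP antagonist Grem1, chosen after its values were seen, fell from 2446, 2208 and 2045 CPM to 814, 479 and 527 CPM (-1.88 ± 0.24). The coreceptor Tgfbr3, chosen likewise, fell from 475, 584 and 524 CPM to 163, 130 and 150 CPM (-1.83 ± 0.17), and the signal carrier Smad3 did not pass (0.27).

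Wnt pathway genes leaned down, with 12 of 31 lower and 2 higher and a median of -0.27, and 5 higher with the replicate number as a block. The receptor Fzd1 fell from 318, 205 and 205 CPM to 86.9, 40.8 and 32.0 CPM (log2 fold change -2.19 ± 0.37), and the antagonist Dkk2 from 20.7, 15.8 and 17.8 CPM to 2.83, 1.47 and 2.27 CPM (-3.04 ± 0.28). The ligand Wnt9a rose from 0.580, 0.126 and 1.17 CPM to 44.3, 50.8 and 26.5 CPM, and the effector beta-catenin (Ctnnb1) did not pass (0.27). In the Notch list 8 of 16 were higher and 0 lower, with a median of 0.73. The lower count was 0 as well with DESeq2, with limma-voom and at an unadjusted p under 0.05 in edgeR. The receptor Notch1 rose from 27.8, 27.8 and 30.1 CPM to 114, 163 and 128 CPM (2.24 ± 0.17) and the ligand Jag1 from 6.41, 9.41 and 7.61 CPM to 25.3, 34.6 and 34.7 CPM (2.01 ± 0.22), while Notch2 and the DNA-binding partner Rbpj overlapped between groups. The YAP and TEAD list, which holds pathway factors as well as targets, gave 7 of 23 higher and 4 lower. Lower members were 1 without Gem-SU replicate 2 and 2 without Gem-SU replicate 3. The secreted targets Ccn1 (201, 205 and 129 CPM against 1557, 903 and 967 CPM, 2.68 ± 0.28) and Ccn2 (35.4, 19.2 and 27.5 CPM against 161, 120 and 162 CPM, 2.43 ± 0.24) rose. The factor Tead2 fell by 1.52, and the coactivator Wwtr1 did not pass (-0.04). Receptor tyrosine kinases and their membrane ligands gave 11 of 27 higher and 2 lower (1 to 3 in the fits without 1 library), with a median of 0.36. The ephrin receptor Epha2 rose from 53.3, 37.9 and 55.6 CPM to 452, 467 and 379 CPM (3.14 ± 0.20) and the ephrin Efnb2 from 126, 106 and 108 CPM to 326, 326 and 291 CPM (1.47 ± 0.15).

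Immune and secreted defence genes went separate ways. In the cytokine and NF-kappaB list 17 of 29 were higher and 7 lower, with a median of 0.85, and the lower ones were 4 without Control-SU replicate 1 and 3 without Control-SU replicate 3 or Gem-SU replicate 2. Lif, a cytokine of the interleukin 6 family, rose from 6.90, 3.76 and 5.75 CPM to 146, 237 and 179 CPM (log2 fold change 5.10 ± 0.29). The NF-kappaB inhibitors Tnfaip3 and Nfkbia rose from 19.7, 16.9 and 21.0 CPM to 87.5, 102 and 95.1 CPM (2.31 ± 0.15) and from 55.1, 44.2 and 51.9 CPM to 187, 217 and 202 CPM (2.00 ± 0.15). Of 14 chemokines 3 were higher and 5 lower, with a median of -0.47. The count was 1 higher without Control-SU replicate 3 or Gem-SU replicate 1, and 3 lower without Control-SU replicate 1, Gem-SU replicate 2 or Gem-SU replicate 3. Cxcl10, which attracts T cells, rose from 237, 281 and 176 CPM to 486, 560 and 545 CPM (1.19 ± 0.20), against the fall of Cxcl12. Interferon-stimulated genes showed no common direction, at 6 of 31 higher and 7 lower with a median of -0.07, which became 0.02 without Control-SU replicate 2 and 0.08 without Gem-SU replicate 1. Lower members were 3 without Gem-SU replicate 2 and 12 with the replicate block. Within the list the GTPase Mx2 rose from 38.1, 40.9 and 39.0 CPM to 258, 343 and 309 CPM (2.95 ± 0.16) and the antiviral enzyme Rsad2 from 142, 133 and 161 CPM to 328, 600 and 758 CPM (1.95 ± 0.29). Bst2, Ifit3 and Isg15, chosen after their values were seen, fell by 1.14, 0.96 and 0.87 on the log2 scale, and the libraries of the 2 groups overlapped for Bst2.

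Complement genes fell, with 11 of 16 lower and a median of -1.30. With edgeR, at an adjusted or an unadjusted p under 0.05, and with DESeq2 or limma-voom, 0 were higher. C1s1, a protease of the first complement component, had 471, 373 and 332 CPM with Control-SU and 174, 74.9 and 69.6 CPM with Gem-SU (log2 fold change -1.89 ± 0.35, adjusted p = 0.00300). Antigen presentation gave 12 of 21 lower and 2 higher, Nlrc5 and H2-Q4, of which at most 1 remained past the threshold in any fit without 1 library; the median was -0.64. H2-T22 fell from 325, 298 and 331 CPM to 165, 139 and 130 CPM (-1.14 ± 0.15) and the immunoproteasome subunit Psmb10 from 94.6, 71.4 and 79.0 CPM to 43.1, 33.5 and 22.0 CPM (-1.31 ± 0.24). Genes of the H2 family are alike in sequence, so their separate counts are uncertain. The chaperones Calr and Canx did not pass, at 0.27 and 0.19.

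Lipid metabolism fell in part. Of 25 cholesterol synthesis genes 10 were lower and 1 higher, with a median of -0.50. The squalene epoxidase Sqle fell from 437, 529 and 642 CPM to 232, 168 and 182 CPM (log2 fold change -1.47 ± 0.20) and the last-step reductase Dhcr7 from 40.1, 55.5 and 60.2 CPM to 28.4, 22.4 and 20.4 CPM (-1.13 ± 0.21). The higher member was Insig1, which retains the sterol sensor in the endoplasmic reticulum, at 215, 192 and 287 CPM against 385, 403 and 503 CPM (0.89 ± 0.20). Cyp51 and Idi1 overlapped between groups. Fatty acid and lipid genes gave 17 of 32 lower and 6 higher, with a median of -0.55. The desaturase Scd1 fell from 590, 1075 and 1064 CPM to 252, 260 and 301 CPM (-1.75 ± 0.25) and Cpt1a, the gate of fatty acid entry into mitochondria, from 211, 254 and 247 CPM to 82.8, 63.7 and 71.7 CPM (-1.71 ± 0.16). Fasn (0.09) and Acly (-0.07), which make new fatty acid chains and their precursor, overlapped between groups, and Dgat2, which makes triglyceride, rose from 9.28, 7.36 and 7.12 CPM to 34.7, 29.4 and 32.9 CPM (2.03 ± 0.19).

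Glycolysis showed no common direction, at 5 of 21 higher and 4 lower and a median of 0.04, which fell between -0.08 and -0.03 without Control-SU replicate 1 or 2 or without Gem-SU replicate 1 or 3. The lower members were 2 without Gem-SU replicate 2 or Gem-SU replicate 3. The glucose transporter Slc2a1 rose from 41.3, 37.6 and 38.1 CPM to 193, 182 and 173 CPM (log2 fold change 2.23 ± 0.13) and hexokinase Hk2 from 33.1, 29.2 and 29.5 CPM to 62.9, 91.0 and 80.0 CPM (1.35 ± 0.17), while Pkm and Gapdh did not pass (-0.27 and -0.50). Respiratory chain genes gave 10 of 33 lower and 0 higher, with a median of -0.48. The higher count was 0 with DESeq2 and limma-voom and at an unadjusted p under 0.05 in edgeR too, and 1 with the exonic length offset. The lower count ranged from 2 without Gem-SU replicate 2 and 4 without Gem-SU replicate 3 to 20 without Gem-SU replicate 1, with 5 and 6 without Control-SU replicates 1 and 2, and the mitochondrially encoded share of counts was also lower with Gem-SU. Sdhc, a membrane anchor of complex II, fell from 97.8, 76.7 and 74.2 CPM to 43.0, 23.8 and 22.0 CPM (-1.49 ± 0.27). Of 23 hypoxia-inducible genes 11 were higher and 7 lower, with a median of 0.45, and 4 lower without Gem-SU replicate 2 or Gem-SU replicate 3. Ddit4, which restrains mTOR, rose from 42.5, 15.0 and 40.4 CPM to 180, 187 and 98.0 CPM (2.25 ± 0.40), a call that did not hold with the replicate block (adjusted p = 0.0821). The hypoxia factor Epas1 rose from 13.1, 11.8 and 13.2 CPM to 34.2, 36.2 and 35.4 CPM (1.47 ± 0.15), and the repressor Bhlhe40 fell from 68.9, 86.3 and 88.6 CPM to 32.2, 23.7 and 28.2 CPM (-1.54 ± 0.17).

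Single members of the protein folding lists changed in both directions. Of 32 cytosolic chaperone genes 11 were higher and 2 lower, with a median of 0.24 and 4 lower with DESeq2. Dnajb1, a cochaperone induced by heat shock factor, rose from 79.9, 68.3 and 72.2 CPM to 594, 493 and 509 CPM (log2 fold change 2.86 ± 0.16) and the inducible Hsp90aa1 from 584, 645 and 615 CPM to 1289, 1299 and 1542 CPM (1.16 ± 0.17), while its constitutive relative Hsp90ab1 did not pass (-0.43) and Hspa8 fell. Endoplasmic reticulum folding genes gave 8 of 32 higher and 3 lower, with 9 lower without Gem-SU replicate 1, 5 without Control-SU replicate 2, and 9 with DESeq2. The sensor kinase Ern1 rose from 98.9, 113 and 113 CPM to 329, 453 and 457 CPM (1.93 ± 0.18), while Xbp1, the message that Ern1 splices, fell from 82.8, 81.6 and 98.9 CPM to 32.0, 29.3 and 35.8 CPM (-1.44 ± 0.15). Autophagy and lysosome genes gave 11 of 33 lower and 5 higher, with 7 lower without Control-SU replicate 1 or Gem-SU replicate 3 and 4 without Gem-SU replicate 2. The kinase Ulk1, which starts autophagy, rose from 74.7, 82.4 and 81.6 CPM to 184, 195 and 183 CPM (1.24 ± 0.13), and the phosphoinositide reader Wipi1 fell from 83.8, 116 and 93.9 CPM to 33.5, 32.9 and 30.8 CPM (-1.60 ± 0.16).

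The libraries of a group differed in how far these lists moved. For ribosomal proteins the median over members of log2(CPM + 0.5), relative to the Control-SU mean, was 0.15, 0.06 and -0.20 in the Control-SU libraries and -0.40, -1.02 and -1.09 with Gem-SU. Complement genes had -0.77, -1.38 and -1.46 with Gem-SU, and collagens -0.49, -0.85 and -0.97. Gem-SU replicate 1 thus moved least in the lists of matrix, complement and ribosomal protein genes. DNA replication genes had 0.84, 0.70 and 0.78 with Gem-SU and splicing genes 0.52, 0.60 and 0.62. Immediate early genes were spread more widely, at 2.84, 2.27 and 1.97, with Gem-SU replicate 1 the highest.

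**Figure D4:**
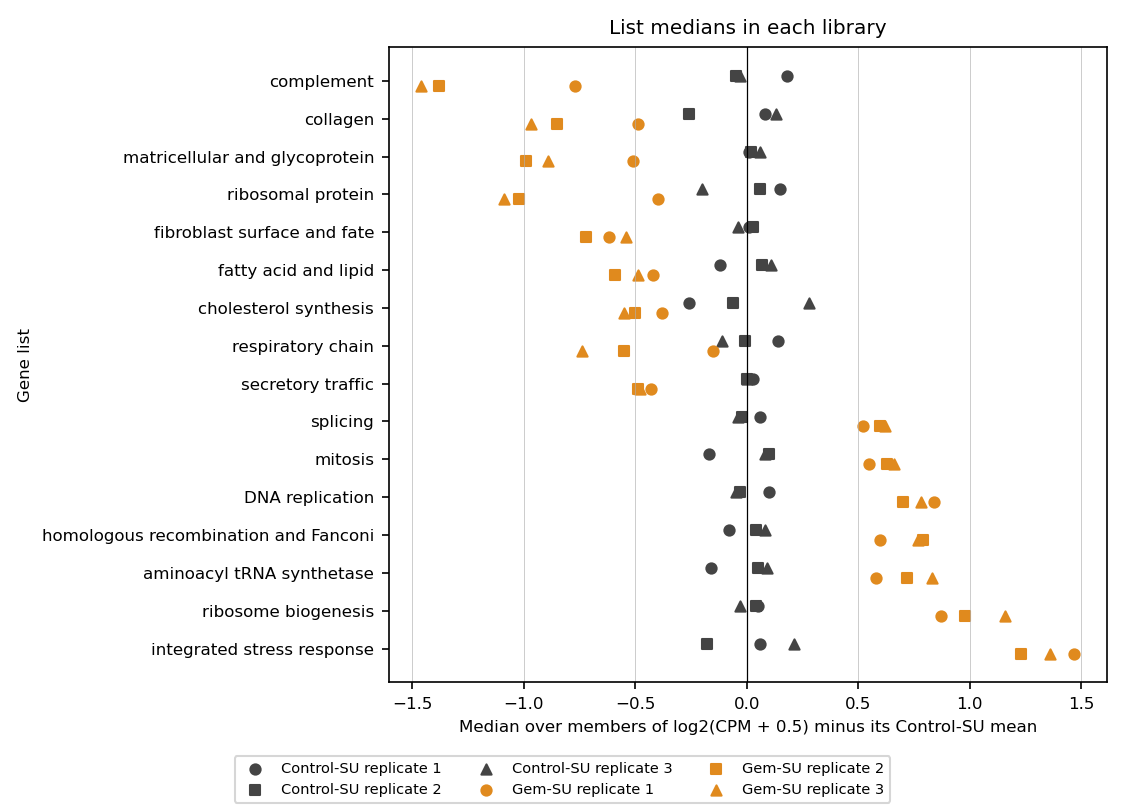
Median over list members of log2(CPM + 0.5) minus the Control-SU mean of each gene (horizontal axis), 1 point per library, for 16 lists, with Control-SU libraries in grey and Gem-SU libraries in orange. The lists shown are a selection from the 48 lists counted, and groups do not overlap for them. Groups do overlap for several lists that are not shown. In autophagy and lysosome genes, Gem-SU replicate 1 (0.01) lies within the Control-SU libraries (0.17, -0.12 and -0.06). In clock genes it is at -0.09, against -0.14, -0.06 and 0.11 with Control-SU. Among the lists shown, Gem-SU replicate 1 lies nearest to Control-SU for complement (-0.77), collagen (-0.49) and ribosomal protein genes (-0.40).

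Short genes were lower as a class. The 1718 genes spanning under 5 kb had a median log2 fold change of -0.27, with 14.1% higher and 22.7% lower, and the 211 of these that were well expressed had -0.67, with 17.5% higher and 47.9% lower. For genes with an exonic length under 1 kb the medians were -0.49 over 413 genes and -0.88 over the 41 well expressed ones. Genes of 50 to 100 kb had a median of 0.11 and those of 200 kb or more -0.11. Libraries of the same group differed along length too. For exonic lengths under 1 kb the medians relative to the Control-SU mean were 0.15, -0.09 and -0.10 in the Control-SU libraries and -0.17, -0.38 and -0.40 with Gem-SU, and at 8 kb or more they were -0.15, 0.12 and 0.04 against -0.15, 0.16 and 0.23. RNA quality per library was not analysed here, and its part in the length pattern was not tested. With an offset for exonic length, chosen after seeing the data, 6729 genes passed, 3240 higher and 3489 lower, and of the 1406 well expressed calls 1354 remained past the threshold.

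**Figure D5:**
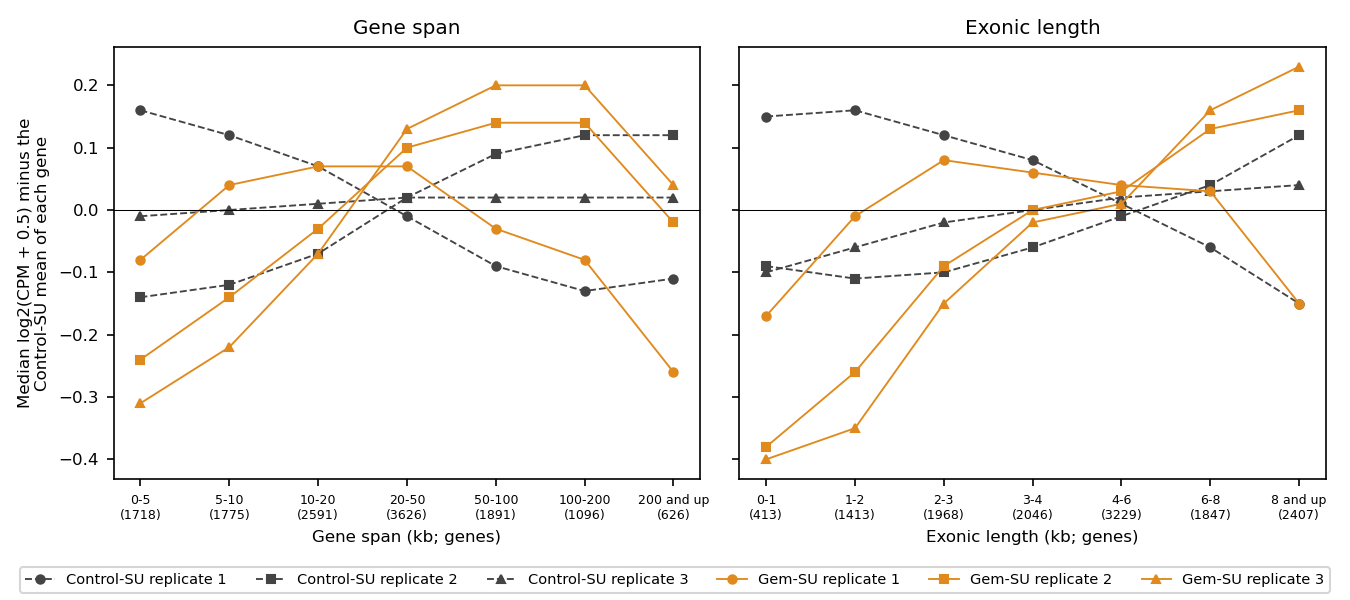
Median of log2(CPM + 0.5) minus the Control-SU mean of each gene, by class of gene span (left) and exonic length (right) in kb, with the number of genes per class in brackets, 1 line per library. The shortest exonic class is lowest with Gem-SU (-0.17, -0.38 and -0.40), and Control-SU replicate 1 and Gem-SU replicate 1 bend away from the other libraries of their groups in the longest class.

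The authors' deposited table lists 15371 genes for this comparison, of which 6484 have an adjusted p under 0.05 there. Of the 1362 well expressed calls with a symbol in the authors' deposited table, 1273 were called there too, all with the same sign. The authors called 1410 of the well expressed genes matched, so some of their calls were not made here. Their table describes the same comparison and is not independent support.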

How the data were processed

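PSC4 total RNA was sequenced (NovaSeq X Plus), as the labels' protocols state. The authors deposited 1 table of counts per gene, taken here as Salmon's estimated counts, since Salmon is the one counting tool in the submitters' processing notes; all values were whole numbers. The notes also name FastQC, Trim Galore 0.6.10, cutadapt 5.2, R 4.5.1, DESeq2 and build GRCm39. The annotation release and the strand setting are not given in the sources used here. The authors' deposited comparison table gives log2 fold changes and p-values, of which only adjusted p-values and signs were used.

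The members and the gene lists were chosen with earlier results of these data known. Symbols (16338 of 16386 identifiers), gene spans and exonic lengths came from GENCODE M21 on GRCm38, and no coordinates of that annotation are printed. Genes passing edgeR's filterByExpr were scaled by TMM and tested with edgeR 4.0.16 (R 4.3.3; robust quasi-likelihood test, Benjamini-Hochberg adjustment over 13347 genes), and the standard error is the log2 fold change divided by the root of F. The fit held the 6 PSC4 libraries and no covariate. The total count per library was 29559414 to 38138356, and the median standard error of well expressed genes was 0.18. With 3 against 3, an exact two-sided permutation test of a single value cannot go below p = 0.1. The steps were tested on simulated counts.

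Named genes were the 12 largest rises and the 12 largest falls among well expressed genes, and the 6 largest gains and 6 largest losses in CPM. Each had to pass in the fit of all libraries and in all 6 fits without 1 library, with groups that did not overlap; predicted genes, pseudogenes and mitochondrial genes were left out. For each list up to 4 members of at least 10 CPM with the largest change that passed in those fits were eligible, and the 2 most abundant members that did not pass. Members named because a count was 5 or fewer were chosen after their values were seen. Alternatives were DESeq2 1.42.0, limma-voom (limma 3.58.1), DESeq2 size factors, other count filters, a test against a 1.2-fold change, the replicate number as a block, each library left out in turn, and an offset for exonic length added after seeing the data.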

Additional observations from a re-analysis of the deposited data

How the results depend on the processing

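The count of genes past the threshold was 6816 with DESeq2, 6266 with limma-voom, 6094 with no filter, 5890 with at least 10 counts in every library, 5026 against a 1.2-fold change and 6729 with the exonic length offset. Leaving out 1 library in turn gave 4061 to 6826 genes (2337 to 3481 higher, 1724 to 3345 lower) and 902 to 1624 well expressed genes (534 to 862 higher, 358 to 762 lower). The lowest of these, 4061, 1724, 902 and 358, were without Gem-SU replicate 2; the cause was not tested. The higher genes were 52.5% of calls, 57.5% without Gem-SU replicate 2 and 48.1% with the length offset, and the median over all genes moved at most to -0.06. The median of genes spanning under 5 kb, -0.27, was -0.67 for genes of at least 100 CPM and -0.49 for exonic lengths under 1 kb. Whether the replicate numbers pair the libraries cannot be decided from 3 correlations of deviations, which were 0.428, -0.0548 and 0.102 for replicates 1, 2 and 3. Of the 3 numbers, 1, replicate 1, correlated best with its own number. The replicate block gave 7266 genes and 1681 well expressed ones. Of the 201 passing genes eligible under the naming rule, which itself asked for a pass without each library, Ddit4 lost its call with the block, and none of the 295 followed turned direction while past the threshold. Genes named outside that rule were not followed here, and Col27a1, Pold1, Nlrc5 and H2-Q4 each lost their call in at least 1 fit without a library. The list counts moved most without Gem-SU replicate 2, where 30 of 96 changed by over 1.5 times. Depth was high for well expressed genes; for genes under 1 CPM the test had few counts to work with.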

Other observations

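Clock genes leaned down, with 9 of 19 lower and 3 higher and a median log2 fold change of -0.53. The clock output factor Dbp fell from 16.5, 19.9 and 26.9 CPM to 2.26, 1.92 and 1.02 CPM (-3.60 ± 0.34), and its relative Hlf from 84.9, 137 and 122 CPM to 32.4, 22.1 and 20.7 CPM (-2.19 ± 0.24). Arntl, which encodes the core activator BMAL1, rose from 12.8, 10.6 and 10.2 CPM to 50.6, 51.3 and 50.5 CPM (2.18 ± 0.16). Groups did not overlap for these 3 genes, all of them below the well expressed level. Among well expressed genes that held for 60.1%.

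Antioxidant genes under Nrf2 had no common direction, with 6 of 30 higher and 4 lower, and 10 lower without Gem-SU replicate 1 and 2 lower without Gem-SU replicate 2 or 3. The glutathione synthesis genes Gclc and Gss rose, from 31.3, 41.2 and 41.9 CPM to 139, 149 and 182 CPM (2.04 ± 0.18) and from 33.6, 16.7 and 26.7 CPM to 82.4, 87.8 and 66.4 CPM (1.62 ± 0.25), while the glutathione transferase Gstm1 fell from 76.4, 72.5 and 70.1 CPM to 24.0, 13.4 and 11.9 CPM (-2.15 ± 0.26). The transferrin receptor Tfrc, by which cells take up iron, rose from 71.3, 72.5 and 79.0 CPM to 232, 328 and 366 CPM (2.06 ± 0.19). The tubulin chain Tubb6 rose from 192, 126 and 159 CPM to 620, 501 and 429 CPM (1.70 ± 0.21).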
